A study of Mus musculus with 2 samples.

Results

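The intron control rows of a mouse lung expression array were described, that is, the 5331 rows of the deposited table whose category names an intron of a normalisation gene, out of 41345 rows in all. They were chosen by that category alone, which uses no measured value, and all 5331 carried a value in both arrays. The 1352 exon control rows of the same design served as their comparison. The irradiated array came from lungs of male C57BL/6 mice, an inbred laboratory strain, whose chest had received a single dose of gamma rays at 7 weeks of age and whose lungs were taken after 25 weeks. These mice were described by the study as overexpressing alpha-smooth muscle actin, the contractile protein of scar-forming myofibroblasts. The nonirradiated array came from lungs of male C57BL/6 mice that served as negative controls, collected at the same 25 weeks. The gamma source delivered 0.81 Gy/min according to the labels, and the total dose and the number of mice behind each array are not given in the sources used here.

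An intron is the stretch of a gene that is copied into the first transcript and then cut out by splicing, so mature messenger RNA lacks it. Whole-transcript labelling primes along the length of RNA and can therefore also copy unspliced nuclear transcripts that still hold introns. Array makers place probes in exons and introns of genes that are widely expressed, the exons as rows that should be bright and the introns as rows that should be dim. Such intron rows record a mixture of unspliced RNA, other transcripts from the same place, and the signal any probe gives without a matching target.

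The members could not be split by chromosome. The chromosome, strand and gene symbol cells of all 5331 intron rows and all 1352 exon rows held no entry in the table, and their start cell held 0, whereas all 33793 rows of the main category, the array's ordinary transcript clusters, carried a chromosome. Host genes of the introns were therefore not analysed here, no intron sequence is shown, and rows are identified only by their number. The other planned measures, brightness and the number of probes in a row, were filled for every member. Brightness means here the mean of a row's values in the 2 arrays.

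The values were RMA values on the log2 scale, in which 1 unit is a doubling. With 1 array in each group, replicate error could not be measured and nothing was tested, and every value below describes these 2 arrays. Rows are not replicates of the lungs. The irradiated and nonirradiated values of intron rows correlated across rows with a Pearson r of 0.938, those of exon rows with 0.978 and those of main-category rows with 0.991, as a description over rows that share the same 2 hybridisations.

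Intron rows were brighter in the irradiated array, while exon rows were slightly dimmer there. Intron rows had a median of 6.58 in the irradiated array, against 6.33 in the nonirradiated array. The middle 50% of intron rows ran from 5.50 to 7.51 in the irradiated array, against 5.23 to 7.26 in the nonirradiated array, so the 2 distributions overlapped almost throughout and were displaced as a whole. The median difference per row, irradiated minus nonirradiated, was 0.27 on the log2 scale. Of the 5331 intron rows, 3793 were higher in the irradiated array, 1521 were lower and 17 were equal, so that 71.1% were higher.

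Exon rows had a median of 9.88 in the irradiated array, against 9.97 in the nonirradiated array. Their median difference was -0.08, and 539 of the 1352, or 39.9%, were higher in the irradiated array. Main-category rows had a median difference of 0.0, with 48.7% higher. The intron rows thus lay 0.35 above the exon rows in their median difference. When exon rows were weighted to the brightness of the intron rows, this value was still 0.35, since the weighted exon median was -0.08. Few exon rows were dim, however. Only 33 had a brightness below 5.36, against 1333 intron rows, and their differences had an SD of 1.31.

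**Figure D1:**
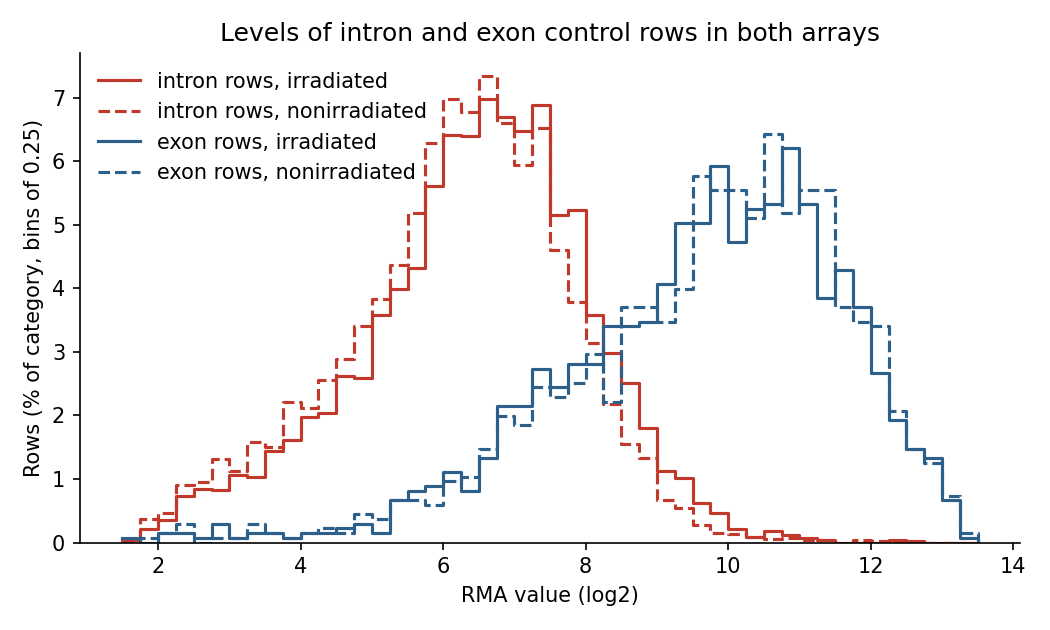
Share of rows (percent of each category, in bins of 0.25) against the RMA value on the log2 scale, for intron rows (red) and exon rows (blue) in the irradiated (solid) and nonirradiated (dashed) array. The intron distribution sits to the right in the irradiated array, with a median of 6.58 against 6.33, and the exon distribution sits slightly to the left, with 9.88 against 9.97.

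The gap between both kinds of control row was accordingly narrower in the irradiated array. The exon median lay 3.30 above the intron median in the irradiated array, against 3.65 in the nonirradiated array. Taking every pair of 1 exon row and 1 intron row, the exon row was the brighter in 89.4% of pairs in the irradiated array, against 91.5% in the nonirradiated array. Values of different probes also depend on how strongly each probe binds, so these levels describe the categories and not single genes, whereas the narrowing compares the same probes in both arrays. Intron rows above the median of the main-category rows numbered 2218 in the irradiated array, against 1867 in the nonirradiated array, or 41.6% against 35.0%.

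Differences of at least 1.5-fold were far more frequent among intron rows than among main-category rows as a whole, and most of them were upward. Of the intron rows, 1413, or 26.5%, were at least 1.5-fold higher in the irradiated array, against a background of 3.21% of main-category rows. At least 1.5-fold lower were 296 intron rows, or 5.55%, against a background of 1.5%. This background is not matched for the number of probes. Of the 56 main-category rows with 4 probes, the number most intron rows have, 32.1% were higher and 10.7% lower. Exon rows past the same limit were 52 higher, or 3.85%, and 86 lower, or 6.36%. The ratio of higher to lower rows was therefore 4.77 among intron rows and 0.605 among exon rows.

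At 2-fold, 464 intron rows were higher, or 8.70%, against a background of 0.648%, and 70 were lower, or 1.31%, against a background of 0.216%. Among exon rows 17 were at least 2-fold higher and 18 lower, which is 1.26% and 1.33%. These shares are not matched for brightness, since 1170 of the exon rows were as bright as the brightest 1333 intron rows. Nor are they matched for the number of probes. Of the 56 main-category rows with 4 probes, 19.6% were at least 2-fold higher and 3.57% lower. The differences of intron rows had an SD of 0.56, those of exon rows 0.41 and those of main-category rows 0.29, and the order of intron and exon rows turned at lower brightness, as given with the brightness classes.

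**Figure D2:**
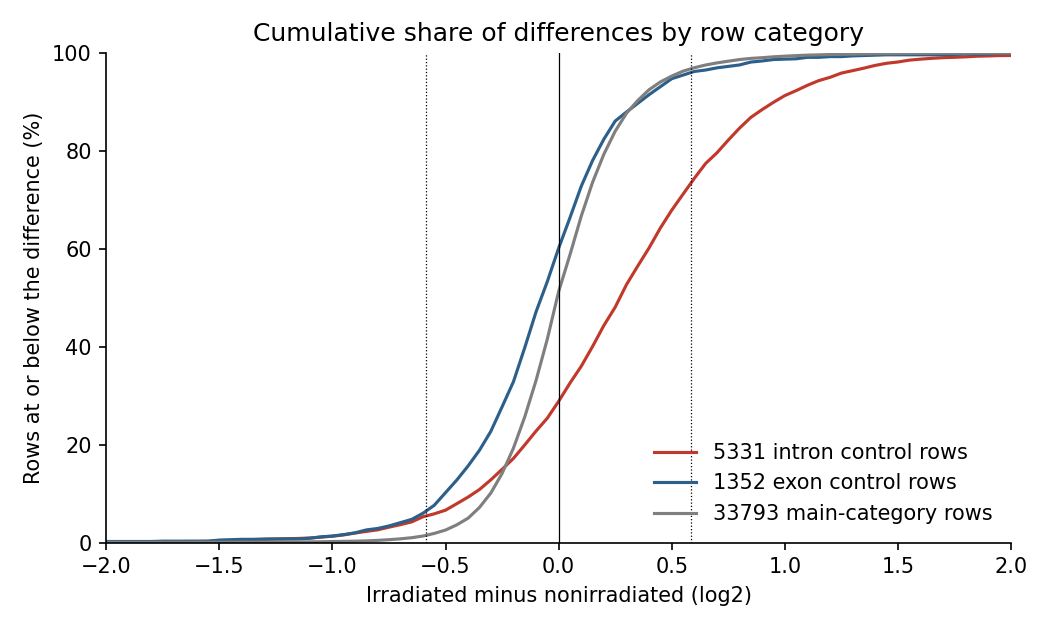
Cumulative share of rows (percent) against the difference irradiated minus nonirradiated on the log2 scale, for 5331 intron rows (red), 1352 exon rows (blue) and 33793 main-category rows (grey), with dotted lines at 1.5-fold. The intron curve crosses 50% at 0.27, and the exon and main curves cross it at -0.08 and 0.0.

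The upward displacement of intron rows was present in each of 4 brightness classes, and it was not a property of dim rows alone. Intron rows were divided by brightness into 4 classes of equal size. The dimmest class, below 5.36, had medians of 4.52 in the irradiated and 4.23 in the nonirradiated array and a median difference of 0.27. The second class had a median difference of 0.26 and the third class 0.25. In the brightest class, above 7.37, the medians were 8.16 in the irradiated and 7.85 in the nonirradiated array, and the median difference was 0.32. The brightest class exceeded the dimmest by 0.05, but this difference was -0.16 when rows were sorted by the nonirradiated array alone and 0.28 when sorted by the irradiated array alone, so no trend with brightness is read from it.

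The spread among rows varied more with brightness than the median did. The SD of the differences was 0.74 in the dimmest class, 0.56 in the second, 0.47 in the third and 0.40 in the brightest. Exon rows within the same limits had an SD of 1.31 over 33 rows, 0.67 over 52, 0.52 over 97 and 0.32 over 1170. Intron rows thus spread more than exon rows in the brightest class and less in the other 3. The brightest class is not matched for brightness, since its exon rows had medians of 10.19 in the irradiated and 10.27 in the nonirradiated array. From 7.5 to 8 the SD was 0.40 in intron and 0.48 in exon rows, and from 8 to 8.5 it was 0.38 and 0.43. From 8.5 to 9 it was 0.42 in intron and 0.37 in exon rows, and from 9 to 9.5 it was 0.40 and 0.36. The share of intron rows higher in the irradiated array was 66.4%, 67.0%, 72.6% and 78.6% from the dimmest to the brightest class. With 10 classes of equal size, 82.2% of the brightest class, those above 8.18, were higher, with a median difference of 0.35.

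Rows at least 1.5-fold lower were concentrated among dim introns. The dimmest of the 4 classes held 404 rows at least 1.5-fold higher and 165 lower, whereas the brightest class held 336 higher and 15 lower. At 2-fold, the dimmest class held 184 rows higher and 48 lower, and the brightest class 67 higher and 2 lower. Lower rows were also more frequent among dim main-category rows: 2.77% of them were at least 1.5-fold lower in the dimmest class and 1.18% in the brightest, beside 5.68% and 2.13% higher. The 33 exon rows in the dimmest class were at least 1.5-fold higher in 36.4% of cases, against 30.3% of intron rows, and at least 2-fold higher in 21.2% and lower in 15.2%, against 13.8% and 3.60% of intron rows. In the brightest class 1.54% of exon rows were at least 1.5-fold higher, against 25.2% of intron rows. The exon rows of that class were brighter than its intron rows. At a brightness from 7.5 to 8, 5.88% of exon and 21.8% of intron rows were at least 1.5-fold higher. From 8 to 8.5 these shares were 5.68% and 26.4%.

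In bins of brightness 0.5 wide, all 16 bins with at least 20 intron rows, which covered values from 2 to 10, had a positive median difference. It was lowest at 0.12, in the bin from 2 to 2.5 with 59 rows. It was highest at 0.55, in the bin from 9.5 to 10 with 31 rows. Between 3 and 9 the bin medians stayed from 0.23 to 0.33. Above 10 few introns were left, and the 16 rows from 10 to 10.5 had a median of 0.36.

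Exon rows of like brightness did not share the displacement. Of the 9 bins between 5.5 and 10 that held at least 20 rows of both kinds, all had a positive intron median, and 1 had a positive exon median. The exon medians in these bins ran from -0.15 to 0.11. In the bin from 9 to 9.5, 92 intron rows had a median of 0.44 and 117 exon rows a median of -0.14. Main-category rows had medians from -0.06 to 0.06 over the 16 bins.

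**Figure D3:**
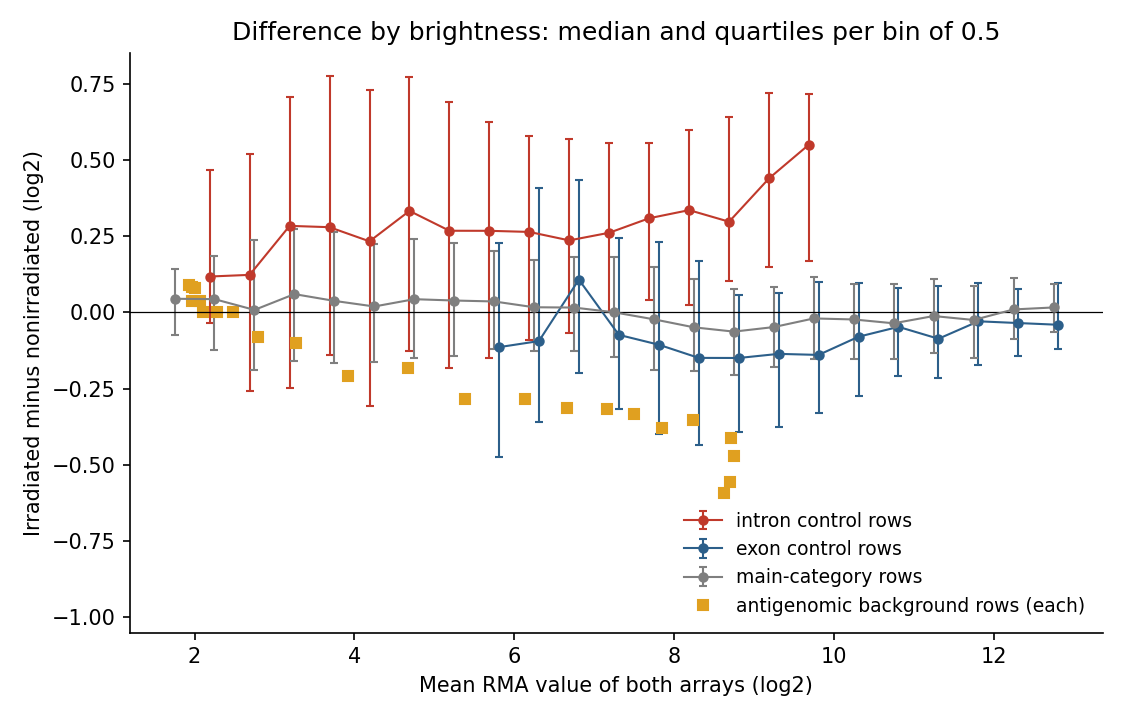
Difference irradiated minus nonirradiated (log2) against the mean RMA value of both arrays (log2), as the median (points) and quartiles (bars) of each bin of 0.5 with at least 20 rows, for intron rows (red), exon rows (blue) and main-category rows (grey), with each of the 23 antigenomic rows as a square. Intron medians lie above 0 in all 16 bins, exon medians lie below 0 in 8 of the 9 bins shared with intron rows, and antigenomic rows brighter than 6 lie between -0.59 and -0.28.

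Most rows that measure signal without a target differed in the other direction. The array carries 23 antigenomic rows, whose probes match no sequence of the studied genome and are used to gauge background. Their median difference was -0.21. Of the 23, 5 were higher in the irradiated array, 3 were equal and 15 were lower. All 10 antigenomic rows brighter than 6 were lower in the irradiated array, by between -0.28 and -0.59.

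Around each antigenomic row, intron rows within 0.25 of its brightness were taken. Their median difference lay above that of the antigenomic row in 23 of 23 cases, by between 0.03 and 0.95. The antigenomic row closest to the middle of the intron rows read 6.51 in the irradiated and 6.82 in the nonirradiated array, a difference of -0.31. The 739 intron rows around it had a median difference of 0.23. The brightest antigenomic row read 8.51 in the irradiated and 8.98 in the nonirradiated array, and the 180 intron rows around it had a median difference of 0.30.

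Intron rows brighter than the brightest antigenomic row of their own array numbered 437 in the irradiated array, or 8.20%, against 117 in the nonirradiated array, or 2.19%. By the same limits, main-category rows numbered 8596 in the irradiated array, or 25.4%, against 6791 in the nonirradiated array, or 20.1%, and exon rows 996 against 928. Of the intron rows, 321 passed in the irradiated array alone, 1 in the nonirradiated array alone and 116 in both. Since that limit itself was lower in the irradiated array, the limit of 8.98 was also applied to both arrays. It was passed by 218 intron rows in the irradiated array, against 117 in the nonirradiated array. Exon rows past 8.98 numbered 909 in the irradiated array, against 928 in the nonirradiated array, and main-category rows 6601 against 6791.

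Intron rows are short probe sets, and 4488 of them, or 84.2%, held 4 probes. A further 598 held 3 probes, 170 held 2, 69 held 1 and 6 held 5. Rows with fewer probes average over fewer measurements. The median difference was 0.17 in rows of 1 probe, 0.36 in rows of 2, 0.30 in rows of 3 and 0.27 in rows of 4. Rows of 1 to 3 probes together lay 0.03 above rows of 4 probes. The planned comparison of rows up to 4 probes with rows above 4 gave 0.21, but only 6 rows stood on its upper side.

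The spread followed the number of probes more closely than the median did. The SD of intron differences was 0.88 with 1 probe, 0.79 with 2, 0.64 with 3 and 0.53 with 4. At least 1.5-fold higher were 16 of 69 intron rows with 1 probe, or 23.2%, 58 of 170 with 2, or 34.1%, 193 of 598 with 3, or 32.3%, and 1146 of 4488 with 4, or 25.5%. At least 1.5-fold lower were 11.6%, 10.6%, 5.69% and 5.21% in the same order.

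Exon rows had fewer probes, and 656 of them held 1. At the same number of probes, their median differences were -0.09 with 1 probe, -0.06 with 2, -0.10 with 3 and -0.14 with 4, each below the intron value. Main-category rows hold at least 4 probes, and the 56 with exactly 4 had a median difference of 0.18 and an SD of 0.75. Of these 56, 18 were at least 1.5-fold higher in the irradiated array, or 32.1%, and 6 were lower. Their mean difference was 0.30, against 0.27 for intron rows of 4 probes, and 19.6% were at least 2-fold higher, against 7.80% of those intron rows. The 1316 main-category rows with 8 probes had a median difference of 0.06. Transcript clusters of 4 probes thus lay below intron rows of 4 probes by the median and above them by the mean and by the share past either limit.

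In the brightest of the 4 classes, where the spread was smallest, intron rows of 4 probes still had a median difference of 0.32 over 1094 rows. The 44 exon rows of 4 probes in that class had a median difference of -0.14, and the 20 main-category rows of 4 probes 0.20. These rows are not matched for brightness within the class. The exon rows had medians of 10.04 in the irradiated and 10.10 in the nonirradiated array, against 8.13 and 7.82 for the intron rows. Of these intron rows, 270 were at least 1.5-fold higher and 13 lower. None of these exon rows was at least 1.5-fold higher, and 1 was lower. Of the 20 main-category rows, 5 were at least 1.5-fold higher, or 25.0%, and none lower, which is close to the 24.7% of these intron rows.

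**Figure D4:**
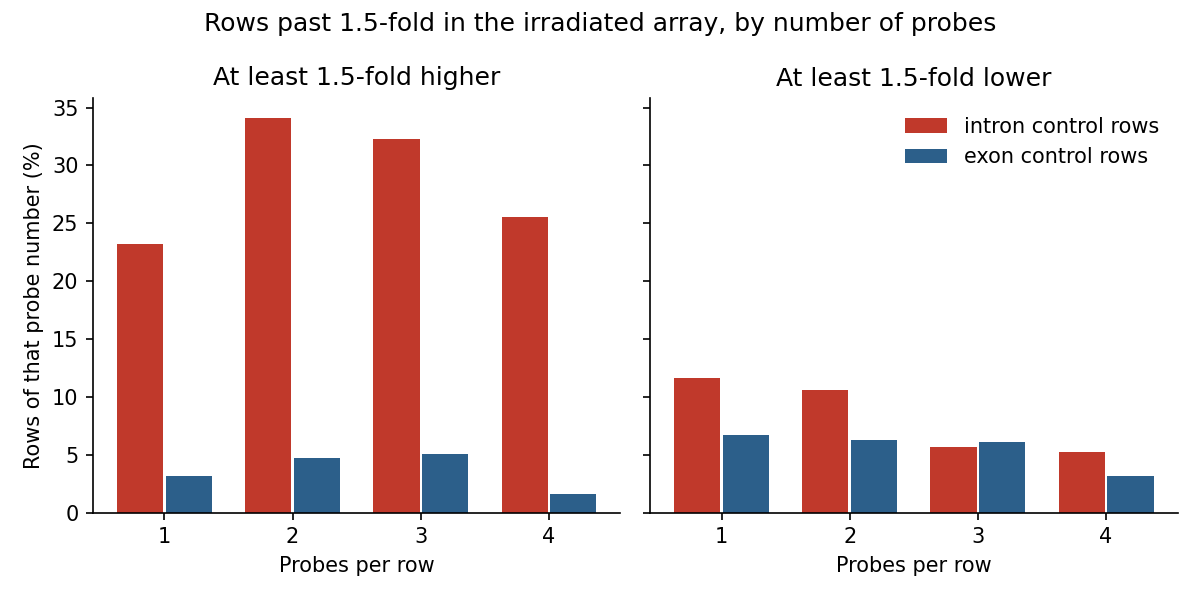
Share of rows (percent of the rows with that number of probes) that were at least 1.5-fold higher (left) or at least 1.5-fold lower (right) in the irradiated array, for intron rows (red) and exon rows (blue) of 1 to 4 probes. The upward share of intron rows runs from 23.2% to 34.1%, and that of exon rows from 1.59% to 5.05%, without matching for brightness. In the dimmest class, rows of 1 to 3 probes were at least 1.5-fold higher in 36.2% of intron rows and 37.0% of 27 exon rows. They were at least 1.5-fold lower in 13.6% of these intron rows and 29.6% of these exon rows.

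The largest single differences were found in dim rows. The row numbered 17210315, of 2 probes, read 6.23 in the irradiated and 2.57 in the nonirradiated array, a difference of 3.66. The row numbered 17208837, of 3 probes, read 5.56 in the irradiated and 2.18 in the nonirradiated array, a difference of 3.38. The 8 intron rows with the largest upward differences read between 5.43 and 6.43 in the irradiated array, against 2.18 to 3.78 in the nonirradiated array, and 2 of them held 4 probes. None of the 8 was above the median of intron rows in either array.

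Downward, the row numbered 17200017, of 2 probes, read 3.30 in the irradiated and 6.19 in the nonirradiated array, a difference of -2.89. The row numbered 17206865, of 1 probe, read 2.66 in the irradiated and 5.25 in the nonirradiated array, a difference of -2.59. The 8 largest downward differences ran from -2.89 to -1.74. Exon rows held single differences of like size, the largest being 3.49 upward and -2.90 downward, each in a row of 1 probe.

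Within the brightest of the 4 classes, 6 of the 8 largest differences in either direction were upward. The largest belonged to a row of 4 probes that read 9.47 in the irradiated and 7.67 in the nonirradiated array, 3.47-fold higher. The 2 downward rows among the 8 read 6.57 and 7.04 in the irradiated array, against 8.25 and 8.71 in the nonirradiated array. The brightest intron row of all read 12.64 in the irradiated and 12.20 in the nonirradiated array, a difference of 0.44. All 4 of the brightest intron rows were higher in the irradiated array, by 0.06 to 0.45, and 2 of these 4 carried identical values.

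Identical values were frequent enough to affect what counts as a separate row. In 207 pairs, both intron rows carried the same value in both arrays, which involved 414 rows, or 7.77%, and left 5124 distinct rows. No exon row shared its values with another exon row. With each pair counted once, the median difference of intron rows was still 0.27.

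The displacement was spread along the numbering of the rows. In blocks of 100 rows taken in order of row number, the median difference was positive in 53 of 54 blocks. The lowest block median was -0.01 and the highest 0.51, and the middle 50% of blocks lay between 0.22 and 0.34. The lowest was the eighth block in order and the highest the eleventh. In the highest block 47 of 100 rows were at least 1.5-fold higher in the irradiated array, and in the lowest block 14 of 100 rows were.

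Rows with neighbouring numbers resembled each other weakly. Between a row and the next, brightness correlated with an r of 0.28 and the difference with an r of 0.16, over 5330 pairs that overlap and share the same 2 arrays. At 10 rows apart these values were 0.05 and 0.02, and at 50 rows apart 0.00 and 0.01. The numbering was not matched to genes or positions here.

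**Figure D5:**
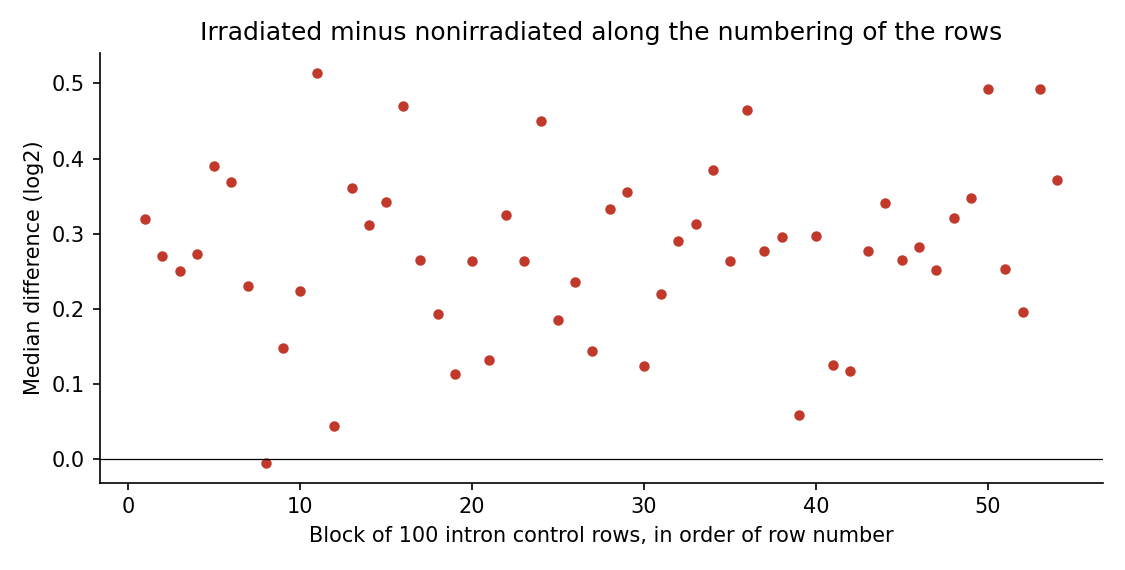
Median difference irradiated minus nonirradiated (log2) of 54 consecutive blocks of intron rows in order of row number, 100 rows each except the last with 31. All blocks but 1 lie above 0, between 0.04 and 0.51 apart from the lowest at -0.01.

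Several other measures differed between the same 2 arrays. Among the remaining controls, 27 of 39 poly-A spike rows, RNA added before labelling, were lower in the irradiated array, with a median difference of -0.16. Of 92 rows for another spike set, ERCC, 51 were lower and 32 higher, with a median of -0.07. The highest ERCC row read 8.21 in the irradiated and 8.56 in the nonirradiated array. Both lie below the brightest antigenomic row, at 8.51 and 8.98, so the values do not show whether ERCC RNA was added. The 18 bacterial spike rows, added at hybridisation, had a median of 0.04, and 17 of 25 ribosomal RNA rows were higher, with a median of 0.10. Lung markers were bright in both arrays, such as Sftpc, surfactant protein C of alveolar type 2 cells, at 13.39 in the irradiated and 13.42 in the nonirradiated array.

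Markers of neighbouring tissues were higher in the irradiated array. All 5 fat markers were higher, by 0.97 to 3.33, with a summed level (log2 of summed linear values) of 12.32 in the irradiated and 10.74 in the nonirradiated array. All 5 heart muscle markers were higher, by 0.61 to 1.93, with summed levels of 12.87 in the irradiated and 11.89 in the nonirradiated array. In the nonirradiated array Ucp1 at 5.96, Adipoq at 6.35 and Cidea at 6.62, all fat markers, lay below the main-category median of 6.85. Fabp4, Plin1 and the heart muscle markers lay above it. All 4 smooth muscle markers were higher, by 0.65 to 1.31, and so were both B cell markers, by 0.22 and 0.29. None of 4 alveolar type 2 markers (-0.45 to -0.03), 4 alveolar type 1 markers (-0.49 to -0.20), 3 ciliated cell markers (-0.81 to -0.46) or 3 macrophage markers (-0.55 to -0.13) was higher. Of 2 club cell and 2 endothelial markers, 1 each was higher. The relation of these cells and of the other control rows to the intron values was not tested. In bulk tissue a change in cell numbers and a change in RNA per cell cannot be told apart.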

How the data were processed

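Lung RNA was isolated with Trizol, and 300 ng of it was labelled with biotin by an Affymetrix whole-transcript kit, per the protocols in the labels. The authors deposited log2 values. The submitters' processing notes name RMA and Affymetrix Expression Console, version 1.3.1. The sources used here name no array model. RMA as usually run subtracts a background and brings all arrays to 1 distribution, so a shift of some rows is relative to the rest. The authors' deposited log2 ratio equalled irradiated minus nonirradiated in all 41345 rows, their absolute fold ratio was not used, and the value table held the same values.

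Differences are irradiated minus nonirradiated. Medians, counts past 1.5-fold and 2-fold, bins of brightness and probe numbers were computed with Python 3.11.15, numpy 2.4.6 and pandas 2.3.3. The median and the counts past 1.5-fold were checked on simulated rows with known shifts. Their noise was equal at every brightness and smaller than the spread of the intron rows. The bins, the weighting and the antigenomic comparison were not part of that check. Depth does not apply, and 1 array per group limits the precision. Members, gene lists and settings were chosen with earlier results of these data known. Extreme rows were taken by a fixed rule, 8 in each direction, 8 in the brightest of 4 classes, the 4 brightest, and 4 exon rows in each direction, and at most 2 are numbered per direction. Sftpc and the tissue markers came from a fixed list. Its genes Abca3 (alveolar type 2), Pecam1 (endothelium) and Cd3e and Cd3g (T cell) matched no main-category row by symbol. No T cell marker was therefore described. The sheets of rows past 1.5-fold and 2-fold hold no intron row and were not used.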

Additional observations from a re-analysis of the deposited data

How the results depend on the processing

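Of 62 recomputed values under 12 settings, 11 could not move, because the main-category median is 0.0 and the value table holds the same values. Of the other 51, 33 kept their direction and stayed within an interval of the reported value computed over rows, or within 1.5 times a count. For some results that interval was wide. Its half-width was 0.63 around 0.21 for rows up to 4 probes against rows above 4. It was 0.06 around 0.03 for 1 to 3 against 4 probes, and 0.05 around 0.05 for the brightest minus the dimmest class. Staying within it says little there. Without rows dimmer than the main-category median of 6.87, which left 2029 intron rows, the intron median was 0.30, its distance from the exon rows 0.39, the SD 0.42, and 515 rows were at least 1.5-fold higher and 32 lower. Without rows under 4 probes the SD was 0.53. With the lowess trend of main-category rows (span 0.3) subtracted, the distance from exon rows was 0.32. At 2-fold, 464 intron rows were higher and 70 lower. The brightest minus the dimmest class of 4 depended on how brightness was defined: 0.05 with the mean of both arrays, it was -0.16 with the nonirradiated array alone and 0.28 with the irradiated array alone. The cause was not tested. Counting identical rows once, comparing 1 to 3 with 4 probes and the next setting were chosen after seeing the data. With the antigenomic difference at each row's brightness subtracted, the intron median was 0.58, the exon median changed sign to 0.37, their distance was 0.20, the brightest minus dimmest class 0.27 and the SD 0.57, with 2626 intron rows higher and 138 lower. This shifts the whole scale, including rows brighter than any antigenomic row.

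Comparisons by chromosome, by host gene and without cross-hybridising rows were not run, since these cells held no entry for control rows. No paired analysis was possible because each group has 1 array.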

Other observations

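Main-category rows were split by whether they carry a gene symbol. The 13663 rows without a symbol had a median difference of 0.03 and 53.7% were higher in the irradiated array, and the 20130 rows with a symbol had a median of -0.02 and 45.4% were higher. Both medians lay between those of intron and exon rows. Exactly equal values in both arrays were found in 635 main-category rows.

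Main-category rows of 8 or fewer probes were compared with intron rows in the 16 bins of brightness that held at least 20 rows of both. Their median difference was positive in 14 of the 16 bins and ran from -0.04 to 0.22. It lay below the intron median in all 16. Most of these main-category rows hold 8 probes, as 1316 did over all brightness. The comparison is therefore not matched to intron rows, of which 84.2% hold 4.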
